A study of Mus musculus with 12 samples.

Results

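The comparison described here is that of R6/2 with wild-type (WT) mouse striatum when both had received a virus against the protein TRAX. R6/2-T denotes the R6/2 libraries and WT-T the wild-type libraries that received the virus against TRAX. It rests on 6 of the 12 libraries of the study, 3 per group, and on all genes that passed an expression filter, 23453 of 51912. R6/2 mice are a model of Huntington's disease. The strain, B6CBA-Tg(HDexon1)62Gpb/3J, carries exon 1 of human huntingtin, whose CAG repeat is expanded. The strain label of every library is B6CBAFI/J. Both groups received, at 5 weeks of age, injections into the striatum of both hemispheres of an adeno-associated virus (AAV) carrying a short hairpin RNA (shRNA) against TRAX, with 2 µl given per spot and 2.5e9 vector genomes in each µl, and the striatum was dissected at 10.5 weeks. The other 6 libraries, WT-C and R6/2-C, are of the same genotypes, age and tissue and received an AAV with a control shRNA. The samples are whole dissected tissue, so that cells the virus did not reach were sequenced too, and the sources used here do not name its promoter. Whether the 3 libraries of a group are 3 animals is not stated in the labels, so that p-values measure only the spread between these libraries, which may be technical.

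Most neurons of the striatum are medium spiny neurons. Those of the indirect pathway carry dopamine D2 and adenosine receptors and make enkephalin, and those of the direct pathway carry the dopamine D1 receptor and make dynorphin and substance P. In Huntington's disease and in its mouse models these neurons lose much of the messenger RNA that marks them. Immediate-early genes are transcribed within minutes of synaptic activity, many of them through the transcription factors CREB and SRF. TRAX, encoded by Tsnax, forms with translin (Tsn) an RNA-cleaving complex that acts on small RNAs.

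The libraries held 32206236 to 56485022 estimated fragments in the 6 samples. The 3 R6/2-T libraries, at 37909843, 32206236 and 37651400 fragments, were all shallower than the WT-T libraries at 41017213, 56485022 and 53079505. Base composition also separated the groups. From the fifth of genes with the lowest GC content (median 41.3%) to the fifth with the highest (57.8%), the median log2 fold change of R6/2-T over WT-T went from 0.34 to -0.32, with 2934 genes in either. As a check of the labelled tissue, medium spiny neuron markers had a median of 57.1 to 160 FPKM (fragments scaled by gene length and library size) per library, and cortical markers one of 0.608 to 2.39. Some libraries stood apart in markers of other tissue. The cortical gene Slc17a7, the vesicular glutamate transporter of cortical neurons, was at 40.5 CPM (estimated counts brought to 1 library size with TMM factors) in WT-T 3, against 9.58 and 11.6 in the other WT-T libraries and 3.29 to 9.72 in R6/2-T. Ttr, transthyretin, the main product of the choroid plexus, was at 995, 391 and 125 CPM in WT-T 1 to 3 and at 825, 969 and 1490 CPM in R6/2-T. WT-T 1 was the highest of the 6 in genes of antigen presentation, with a summed 5400 CPM against 431 to 1960 in the others. A correction of each library for GC content and length of transcripts (the GC correction) was therefore run beside the main test, as were fits without single libraries.

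Tsnax (ENSMUSG00000056820, GRCm38 chr8:125012997-125034192, plus strand), the gene targeted in both groups, was at 32.9, 27.6 and 33.6 CPM in WT-T and at 44.7, 40.0 and 47.0 CPM in R6/2-T. In the libraries with the control virus it was at 151 to 197 CPM. Every shRNA library was thus far below every control library, and the R6/2-T libraries were above the WT-T libraries without overlap. The difference between the genotypes was 0.49 on the log2 scale (SE 0.10, adjusted p = 0.00757, edgeR's quasi-likelihood test with Benjamini-Hochberg adjustment, as throughout). Without R6/2-T 3 its adjusted p was 0.0504. Tsn differed by 0.37 (SE 0.09, adjusted p = 0.0135), but by 0.07 (adjusted p = 0.734) after the GC correction, and it was not called without R6/2-T 1 or R6/2-T 3. Disc1, a scaffold protein that binds TRAX, was at 1.35, 1.83 and 1.27 CPM in WT-T and at 0.784, 0.677 and 0.995 CPM in R6/2-T (log2 fold change -0.85, SE 0.24, adjusted p = 0.0277). It was not called after the GC correction (-0.52, adjusted p = 0.19) or without WT-T 2, R6/2-T 1 or R6/2-T 2 (adjusted p up to 0.109). Mouse Htt itself did not pass the test, at a log2 fold change of 0.31 (SE 0.15, adjusted p = 0.176), but was called after the GC correction (0.20, adjusted p = 0.0397). The messenger RNA of TRAX was thus lowered in both genotypes, with slightly more of it in R6/2-T. The protein was not measured in these data.

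With Tsnax lowered, 5304 of the 23453 genes tested (22.6%) differed between the genotypes. Of these 2705 (11.5% of all tested) were higher in R6/2-T and 2599 (11.1%) were lower. Large differences were mostly falls. Among called genes with at least a 2-fold difference, 1355 were lower and 253 higher in R6/2-T. The libraries of the groups did not overlap, with R6/2-T higher, for 21.3% of all genes tested, and with R6/2-T lower for 20.9%. The count of called genes rested in large part on single libraries. It was 2760 without R6/2-T 1, 3149 without R6/2-T 3 and 3399 without WT-T 2. In all 12 fits that left out 1 library, 2363 of the 5304 genes (44.6%) kept their call and direction. Of those, 1392 were higher and 971 lower in R6/2-T. After the GC correction 4348 genes (18.5%) were called, 2009 higher (8.57%) and 2339 lower (9.97%). Of the 5304 genes, 3100 (58.4%) were called in the same direction after the correction.

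Markers of medium spiny neurons were lower in R6/2-T. Of 30 markers tested, 21 fell, none rose and 9 did not pass, and the median log2 fold change was -1.14, against -0.05 over all genes tested. Scn4b (ENSMUSG00000046480, chr9:45138395-45154152, plus strand), a sodium channel beta subunit enriched in these neurons, had the smallest p of the list. It was at 1210, 1460 and 1710 CPM in WT-T and at 190, 190 and 239 CPM in R6/2-T. Every R6/2-T library was under every WT-T library by a wide margin, and the log2 fold change was -2.82 (SE 0.15, adjusted p = 5.85e-06). Ppp1r1b, which encodes DARPP-32, the integrator of dopamine and glutamate signals, went from 1390, 1820 and 2240 CPM to 454, 479 and 511 CPM (log2 fold change -1.92, SE 0.18, adjusted p = 0.000138), with no overlap between the groups. The exons of Ppp1r1b overlap those of 1700003D09Rik, and those of Penk, given below, overlap A830012C17Rik. Rgs9, a brake on dopamine receptor signalling, went from 497, 516 and 613 CPM to 198, 193 and 193 CPM (-1.48, SE 0.10, adjusted p = 2.65e-05). Adcy5, the main adenylyl cyclase of the striatum, was at 1440, 2050 and 2460 CPM in WT-T and at 619, 604 and 629 CPM in R6/2-T (-1.69, adjusted p = 0.00025). The R6/2-T libraries lay close to each other for these genes, while WT-T 3 was the highest and WT-T 1 the lowest of the wild-type libraries. In bulk tissue, fewer cells of a type and less RNA per cell cannot be told apart.

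The 9 markers that did not pass were Pde10a, Bcl11b, Foxp1, Foxp2, Rarb, Meis2, Gng7, Gnal and Ido1, 5 of which encode transcription factors (Bcl11b, Foxp1, Foxp2, Rarb and Meis2). Meis2 stood at 340, 332 and 444 CPM in WT-T and at 360, 376 and 360 CPM in R6/2-T, with overlapping groups and a log2 fold change of -0.03 (SE 0.12, adjusted p = 0.908). After the GC correction it was called (-0.33, adjusted p = 0.0402), as were Bcl11b (-0.55, adjusted p = 0.0224) and Rarb (-0.33, adjusted p = 0.0446). Gnal, the olfactory-type G protein subunit that couples the D1 receptor to adenylyl cyclase, had a log2 fold change of -0.05 (SE 0.15, adjusted p = 0.832). Pde10a, a phosphodiesterase of medium spiny neurons, was at 1430, 880 and 1120 CPM in WT-T and at 646, 267 and 619 CPM in R6/2-T. Its groups did not overlap, but its wide spread left it at an adjusted p of 0.134 (log2 fold change -1.16, SE 0.52), and in the fragment estimates deposited beside these counts it was called (-1.51, adjusted p = 0.000169). After the GC correction 24 of the 30 markers were lower, with a median of -1.17, and leaving out any single library gave 18 to 22 lower.

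**Figure D1:**
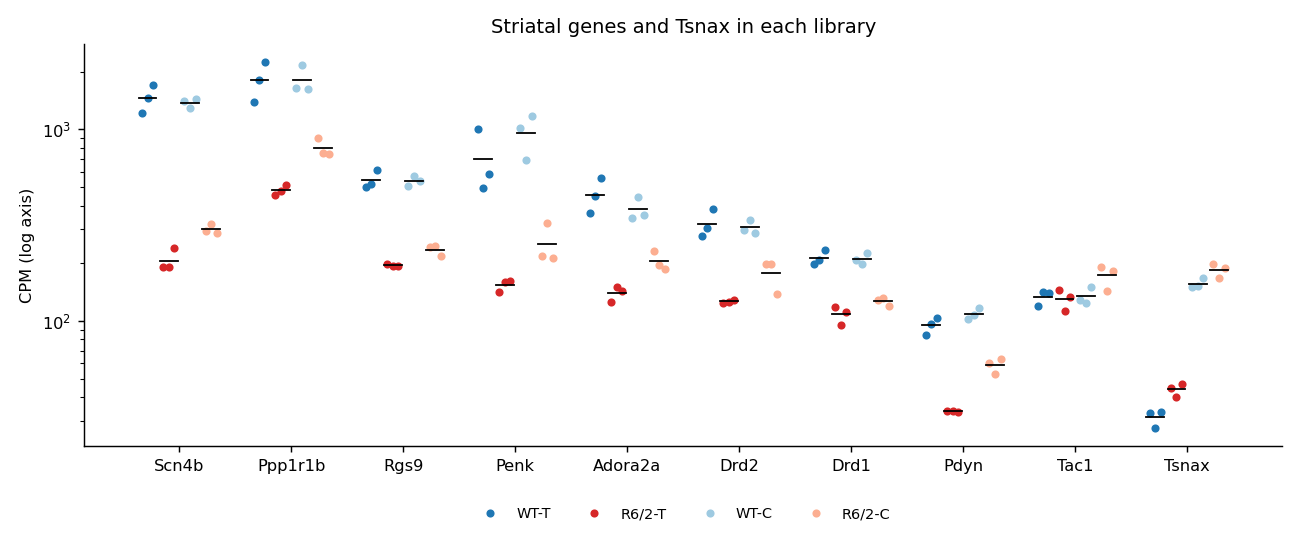
Level of 10 genes in each library, in CPM on a log axis, with points for libraries and a black line for the mean of each group of 3. For the first 8 genes all R6/2-T points lie under all WT-T points, Tac1 overlaps, and Tsnax is far lower in both shRNA groups than in the control groups.

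The genes of both output pathways moved, though not all of them. Of 8 indirect pathway markers tested, 4 fell, none rose and 4 did not pass, with a median log2 fold change of -0.99. Penk, which encodes the enkephalin precursor, was at 1010, 496 and 583 CPM in WT-T and at 142, 160 and 161 CPM in R6/2-T (-2.18, SE 0.29, adjusted p = 0.000779). WT-T 1 was the highest of the wild-type libraries, and all 3 exceeded every R6/2-T library. Adora2a, the adenosine receptor of these neurons, went from 366, 448 and 555 CPM to 125, 150 and 144 CPM (-1.71, SE 0.16, adjusted p = 0.000164). Drd2, the D2 receptor, went from 277, 307 and 383 CPM to 124, 126 and 129 CPM (-1.35, SE 0.15, adjusted p = 0.000361). Gpr6, an orphan receptor of these neurons, was called as well (-1.27, SE 0.17, adjusted p = 0.000813).

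Of 10 direct pathway markers, 5 fell, 2 rose and 3 did not pass, with a median of -0.17. Pdyn, the dynorphin precursor, was at 83.9, 96.4 and 104 CPM in WT-T and at 34.0, 33.7 and 33.6 CPM in R6/2-T (-1.49, SE 0.10, adjusted p = 2.65e-05). Drd1, the D1 receptor, went from 197, 209 and 235 CPM to 118, 95.4 and 111 CPM (-0.98, SE 0.10, adjusted p = 0.000266). Tac1, the substance P precursor made by the same neurons, did not separate the groups. It was at 119, 142 and 140 CPM in WT-T and at 145, 112 and 133 CPM in R6/2-T (-0.04, SE 0.14, adjusted p = 0.872), so that the groups overlapped. The members that rose were the transcription factor Ebf1, from 19.9, 24.9 and 27.1 CPM to 42.4, 43.2 and 38.7 CPM (0.79, SE 0.12, adjusted p = 0.00158), and Eya1, from 6.34, 6.87 and 9.15 CPM to 13.9, 13.9 and 15.8 CPM (0.96, SE 0.16, adjusted p = 0.00246). Both stayed higher after the GC correction, by 0.45 (adjusted p = 0.0113) and 0.76 (adjusted p = 0.00631).

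Of 16 interneuron markers 8 were called lower and none higher, against 11.1% of all genes tested called lower. The count was 4 without R6/2-T 1, where that over all genes went from 2599 to 1167. Slc18a3, the vesicular acetylcholine transporter of cholinergic interneurons, went from 8.16, 10.5 and 12.1 CPM to 5.34, 4.65 and 5.35 CPM (-1.0, SE 0.17, adjusted p = 0.00233). Npy, neuropeptide Y, fell by 0.76 on the log2 scale (SE 0.13, adjusted p = 0.00261), with 43.4 to 50.8 CPM in WT-T and 26.4 to 29.4 CPM in R6/2-T. Pthlh, a marker of a parvalbumin-type interneuron population, fell by 1.29 (SE 0.17, adjusted p = 0.000719).

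Immediate-early genes gave the most uniform pattern of the lists examined. All 30 tested were called lower in R6/2-T, against 11.1% of all genes tested. For all 30 no R6/2-T library reached the lowest WT-T library, against 20.9% of all genes tested. As for the other lists, the members were chosen with earlier results of these data known. These counts therefore describe the members and are not a test of the gene class. The median log2 fold change was -1.46. Leaving out any single library gave 25 to 30 called, the lowest without R6/2-T 1, and 26 were called after the GC correction, with a median of -1.52. The list spans transcription factors, phosphatases that switch off the MAP kinase pathway and proteins acting at the synapse.

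Among the synaptic members, Arc (ENSMUSG00000022602, chr15:74669083-74672570, minus strand), which removes AMPA receptors from the synapse, was at 439, 530 and 499 CPM in WT-T and at 52.4, 60.1 and 84.6 CPM in R6/2-T. That is a 7.45-fold difference, with each group tight against the gap between them (log2 fold change -2.90, SE 0.22, adjusted p = 4.14e-05). Nptx2, a secreted pentraxin that clusters AMPA receptors, went from 27.7, 34.1 and 36.5 CPM to 6.41, 5.10 and 5.32 CPM (-2.54, SE 0.18, adjusted p = 4e-05). Homer1, a postsynaptic scaffold whose short form is induced by activity, went from 193, 197 and 269 CPM to 105, 131 and 138 CPM, one of the smaller falls of the list (-0.82, SE 0.16, adjusted p = 0.00548).

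Among the transcription factors, Junb was at 173, 218 and 191 CPM in WT-T and at 28.8, 31.1 and 37.1 CPM in R6/2-T (-2.59, SE 0.23, adjusted p = 0.000114). Its exons overlap those of Prdx2, and the sources used here do not say whether reads were counted by strand. Egr4 went from 109, 149 and 136 CPM to 19.0, 22.0 and 26.3 CPM (-2.55, SE 0.29, adjusted p = 0.000414). Nr4a1, an orphan nuclear receptor, went from 362, 355 and 286 CPM to 58.4, 45.4 and 71.2 CPM (-2.52, SE 0.42, adjusted p = 0.00291). For these factors the highest R6/2-T library was R6/2-T 3, and the groups were separated by more than the range within either. Npas4, which is induced only by neuronal activity, was at 65.6, 68.9 and 56.9 CPM in WT-T and at 7.63, 16.8 and 16.8 CPM in R6/2-T (-2.21, SE 0.35, adjusted p = 0.00182). Fos went from 36.3, 44.0 and 38.8 CPM to 7.62, 10.4 and 11.6 CPM (-2.01, SE 0.28, adjusted p = 0.000981). Egr2 had the largest fall of the list, -3.79 (SE 0.57, adjusted p = 0.00165), from 12.8, 46.7 and 13.6 CPM to 1.46, 1.25 and 2.57 CPM, with WT-T 2 well above the other wild-type libraries. The weakest members were Nr4a2 (adjusted p = 0.0458) and Fosb (adjusted p = 0.0323), of which the former lost its call in 8 of 12 fits that left out a library. Nr4a2 was at 14.3 CPM in WT-T 3, against 3.78 and 4.11 CPM in the other wild-type libraries. Fosb was not called after the GC correction (adjusted p = 0.0901).

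Dusp1, a phosphatase that inactivates MAP kinases, went from 42.8, 44.8 and 54.8 CPM to 17.9, 16.6 and 17.2 CPM (-1.46, SE 0.13, adjusted p = 0.000114). Dusp6, which acts on the kinase ERK, went from 63.7, 66.2 and 54.0 CPM to 20.6, 24.4 and 26.7 CPM (-1.36, SE 0.17, adjusted p = 0.000521). Dusp4 and Dusp5, of the same family, fell by 0.86 (adjusted p = 0.0108) and 0.75 (adjusted p = 0.0177), the latter not called after the GC correction (adjusted p = 0.0811). All 4 phosphatases were thus lower, by 1.69 to 2.75 times.

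**Figure D2:**
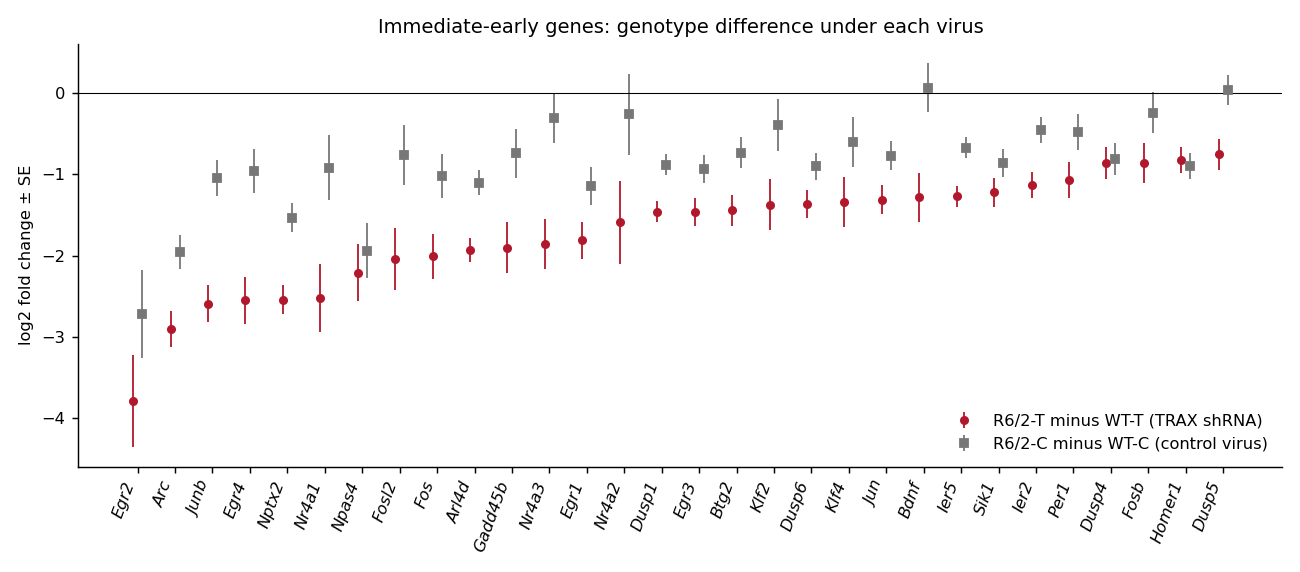
Log2 fold change of R6/2 over wild-type for 30 immediate-early genes, with SE, under the TRAX shRNA (red circles) and the control virus (grey squares), 3 libraries per group. All red points lie below 0, from -3.79 to -0.75, and 28 of 30 grey points do.

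Many promoters of these genes carry a short stretch of letters that the comparison did not use. As many immediate-early genes are transcribed through CREB, its frequency describes the genes listed and not the difference between the genotypes. A promoter here is the stretch from 250 bases before to 50 bases after the transcription start in RefSeq (GRCm38.p6), found for 13985 of the genes tested, 23 of the 30 immediate-early genes among them (Arc was not matched). The letters TGACG, the core of the cyclic AMP response element bound by CREB, were searched on both strands. They were present in 16 of the 23 promoters (69.6%), against 28.2% of all 13985 promoters. Of 23 promoters of medium spiny neuron markers, 3 (13%) had them, as had 423 of 1787 promoters (23.7%) of genes called lower and 692 of 1985 (34.9%) of genes called higher. The full palindrome TGACGTCA, which contains the core, was in 3 of the 23 (13%), against 2.87% of all. The AP-1 letters TGACTCA and the EGR letters GCGTGGGCG were in none of the 23, and in 3.87% and 1.04% of all. A match is a string of letters, and binding was not measured. The sequences below are shown because they carry the core beside the falls given above, with Rgs9, which lacks it, for contrast. They are Npas4 (chr19:4989922-4990221, minus strand), Nr4a1 (chr15:101266596-101266895, plus strand), Fos (chr12:85473640-85473939, plus strand), Dusp1 (chr17:26508423-26508722, minus strand) and Rgs9 (chr11:109298132-109298431, minus strand). Capitals mark TGACG, or CGTCA where it lies on the other strand, and in Dusp1 a pair of them joins to the full palindrome.
Npas4: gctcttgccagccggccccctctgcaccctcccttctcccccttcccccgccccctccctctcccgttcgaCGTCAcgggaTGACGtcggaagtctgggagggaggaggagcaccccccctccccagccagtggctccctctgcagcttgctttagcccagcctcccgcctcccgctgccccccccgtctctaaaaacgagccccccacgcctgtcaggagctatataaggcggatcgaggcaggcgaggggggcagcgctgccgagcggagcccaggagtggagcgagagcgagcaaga
Nr4a1: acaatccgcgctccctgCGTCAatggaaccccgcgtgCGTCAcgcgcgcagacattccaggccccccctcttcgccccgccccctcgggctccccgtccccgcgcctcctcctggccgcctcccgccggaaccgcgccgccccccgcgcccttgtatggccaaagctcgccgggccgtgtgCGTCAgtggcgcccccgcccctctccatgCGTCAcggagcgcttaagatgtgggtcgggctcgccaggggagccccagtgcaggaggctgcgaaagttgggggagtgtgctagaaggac
Fos: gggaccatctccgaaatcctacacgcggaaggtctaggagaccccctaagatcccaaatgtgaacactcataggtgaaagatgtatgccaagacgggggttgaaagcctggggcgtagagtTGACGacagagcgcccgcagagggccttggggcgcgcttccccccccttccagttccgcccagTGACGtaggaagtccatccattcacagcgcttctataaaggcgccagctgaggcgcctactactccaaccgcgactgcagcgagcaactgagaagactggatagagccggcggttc
Dusp1: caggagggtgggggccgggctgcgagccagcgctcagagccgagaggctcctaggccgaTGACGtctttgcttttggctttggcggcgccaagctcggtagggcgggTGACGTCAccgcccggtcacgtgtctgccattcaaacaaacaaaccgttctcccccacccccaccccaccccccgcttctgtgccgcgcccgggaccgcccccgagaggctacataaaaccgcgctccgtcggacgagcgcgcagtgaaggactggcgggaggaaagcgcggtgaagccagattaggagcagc
Rgs9: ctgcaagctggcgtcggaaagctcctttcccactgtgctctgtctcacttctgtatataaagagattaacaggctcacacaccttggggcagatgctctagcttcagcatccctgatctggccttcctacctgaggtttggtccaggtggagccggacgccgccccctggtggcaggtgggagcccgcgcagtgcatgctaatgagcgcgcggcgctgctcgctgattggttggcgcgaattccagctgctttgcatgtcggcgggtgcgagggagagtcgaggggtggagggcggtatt
Nr4a1 had 4 copies, from 233 to 40 bases before the start, Dusp1 had 3 and Npas4 and Fos 2 each. The number of copies did not order the falls, which were -2.52 for Nr4a1, -1.46 for Dusp1, -2.21 for Npas4 and -2.01 for Fos.

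For receptors, channels and signalling proteins of neurons, counts of called genes are to be read against 11.5% of all genes tested called higher and 11.1% called lower. Of 33 glutamate receptor and postsynaptic genes 8 fell and 2 rose (median -0.22), but 5 fell without R6/2-T 1 and 16 without WT-T 1. Dlgap3, a scaffold of corticostriatal synapses, went from 381, 510 and 637 CPM to 188, 211 and 189 CPM (-1.38, SE 0.22, adjusted p = 0.00158). Shank3, to which it is tethered, went from 373, 462 and 580 CPM to 213, 226 and 212 CPM (-1.12, SE 0.16, adjusted p = 0.00109). Both were lower in every R6/2-T library. Of 20 genes of GABA transmission 3 rose and 1 fell (median 0.20), and 1 rose after the GC correction. Gabrd, the delta subunit of extrasynaptic receptors, went from 90.2, 118 and 134 CPM to 46.6, 44.5 and 46.7 CPM (-1.31, SE 0.16, adjusted p = 0.000529).

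Of 34 genes of cyclic nucleotide and G protein signalling 9 fell and 5 rose (median -0.09), with 5 falls without R6/2-T 1. Rgs2 and Rgs14, which speed the switching off of G proteins, fell by 1.56 (SE 0.16, adjusted p = 0.00024) and 1.46 (SE 0.16, adjusted p = 0.000335). Among regulatory subunits of protein kinase A, Prkar1a (0.53, adjusted p = 0.00302) and Prkar2a (0.47, adjusted p = 0.0145) rose. Prkar2a was not called without R6/2-T 1 (adjusted p = 0.0613). Of 51 potassium channel genes 7 fell and 1 rose (median -0.07), shares near or below those of all genes, with 4 to 14 falls when single libraries were left out. The ether-a-go-go-like channel Kcnh4 was at 28.9, 37.1 and 46.4 CPM in WT-T and at 6.49, 6.35 and 6.67 CPM in R6/2-T (-2.53, SE 0.20, adjusted p = 5.54e-05). Its groups were far apart, and it had the smallest p among potassium channels. Of 38 calcium handling genes 10 fell and none rose (median -0.21), with 7 to 15 falls when single libraries were left out. Ryr1, a calcium release channel, went from 45.6, 56.4 and 71.8 CPM to 6.94, 10.0 and 7.84 CPM (-2.81, SE 0.19, adjusted p = 2.65e-05). Of 33 synaptic vesicle genes 6 fell and 4 rose (median 0.10), among them Cplx2 (-0.58, adjusted p = 0.0239) and Syp, synaptophysin (0.46, adjusted p = 0.0153). Syp was not called after the GC correction (0.29, adjusted p = 0.0885), and Cplx2 was not in 5 of 12 fits that left out a library. Without R6/2-T 1, 0 of the vesicle genes were called lower by edgeR.

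Many myelin and astrocyte genes, and fewer of oligodendrocyte precursors and vessels, were lower in R6/2-T, against 11.1% of all genes tested. Of 18 myelin genes 10 fell and none rose (median -0.56), with 5 to 10 when single libraries were left out. Cldn11, the tight-junction protein of myelin, went from 239, 232 and 197 CPM to 98.4, 103 and 103 CPM (-1.14, SE 0.13, adjusted p = 0.000318). The groups did not overlap. Of 18 astrocyte genes 8 fell and none rose (median -0.39), with 5 without R6/2-T 1. Kcnj10, the potassium channel Kir4.1 through which astrocytes clear potassium, went from 386, 400 and 372 CPM to 271, 309 and 244 CPM (-0.49, SE 0.11, adjusted p = 0.00795). The glutamate transporter Slc1a3 fell by 0.38 (SE 0.09, adjusted p = 0.0119). Of 12 precursor genes of oligodendrocytes 4 fell (median -0.22), and 1 did without R6/2-T 1. Of 16 endothelial and mural genes 5 fell (median -0.35), such as Cldn5, the tight-junction protein of the blood-brain barrier (-0.90, SE 0.18, adjusted p = 0.00598). After the GC correction 10 myelin, 9 astrocyte, 2 precursor and 7 vascular genes were lower, against 9.97% of all genes.

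Many immune genes were lower in R6/2-T as well, with a wide spread among the libraries. Of 20 interferon-stimulated genes 13 fell and none rose (median -1.73), and 8 were called lower after the GC correction (median -1.88). Their summed level was 2240, 1740 and 980 CPM in WT-T and 321, 588 and 817 CPM in R6/2-T. The groups did not overlap, but WT-T 3 and R6/2-T 3 lay close to each other. Mx1, an antiviral GTPase, was at 13.1, 33.3 and 17.7 CPM in WT-T and at 1.05, 0.875 and 2.19 CPM in R6/2-T (-3.96, SE 0.74, adjusted p = 0.005). Cxcl10, an interferon-induced chemokine, went from 50.8, 64.2 and 35.7 CPM to 1.94, 2.79 and 5.97 CPM (-3.82, SE 0.66, adjusted p = 0.00346). Most calls of the list depended on single libraries, since 1 of the 20 was called without R6/2-T 1 and 2 without WT-T 1. Mx1 and Cxcl10 kept their calls whichever library was left out. Cxcl10 is counted in the list of reactive astrocyte and complement genes, not among the 20.

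Of 15 antigen presentation genes 6 fell and none rose (median -2.22), and 4 were called lower after the GC correction. Cd74, the invariant chain of MHC class II, was at 1480, 312 and 181 CPM in WT-T and at 23, 79.4 and 62.8 CPM in R6/2-T (-3.58, SE 1.0, adjusted p = 0.0283). WT-T 1 was far over the other wild-type libraries, and without it, or without R6/2-T 1, none of the 15 was called. The summed levels were 5400, 1960 and 1000 CPM in WT-T and 431, 952 and 995 CPM in R6/2-T. In the control libraries they ranged from 1750 to 5500 CPM in WT-C and from 1110 to 3760 CPM in R6/2-C, so that the groups overlapped there. Of 18 microglial genes 10 fell and none rose (median -0.94), with 1 without R6/2-T 1, 4 without WT-T 1 and 8 after the GC correction. Tmem119, a gene specific to resident microglia, went from 82.3, 80.2 and 53.1 CPM to 25.7, 34.6 and 30.6 CPM (-1.25, SE 0.27, adjusted p = 0.00859). The complement gene C1qb went from 335, 214 and 104 CPM to 30.5, 47.1 and 54.0 CPM (-2.31, SE 0.53, adjusted p = 0.0123). Of 17 reactive astrocyte and complement genes 6 fell (median -1.19), with 3 to 11 when single libraries were left out. Of 12 blood cell genes 7 fell (median -1.70), with 2 to 9. Among them are the globin pairs Hba-a1 and Hba-a2, and Hbb-bs and Hbb-bt, whose near-identical copies the counting may have split. The part of infiltrating or blood cells in these differences was not tested.

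Cortical markers were lower in R6/2-T for 4 of 12 genes (median -0.89), and for 1 of 12 without WT-T 3. Their summed level was 761, 733 and 1050 CPM in WT-T and 430, 466 and 493 CPM in R6/2-T, of which Nrgn, neurogranin, also made by striatal neurons, took most (627, 580 and 825 CPM against 292, 327 and 348 CPM). Choroid plexus and ependymal genes had a median of 1.23, with summed levels of 1240, 566 and 211 CPM in WT-T and 1110, 1230 and 2020 CPM in R6/2-T. These overlapped, and of the 12 genes 1 was called, Foxj1 of ciliated cells, lower in R6/2-T (-0.59, SE 0.19, adjusted p = 0.0434). It was not called after the GC correction (-0.16, adjusted p = 0.626) or in 9 of 12 fits that left out a library. The part of neighbouring tissue in the other results was not tested. For medium spiny neuron markers 19 of 30 were lower without WT-T 3, with a median of -1.03.

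**Figure D3:**
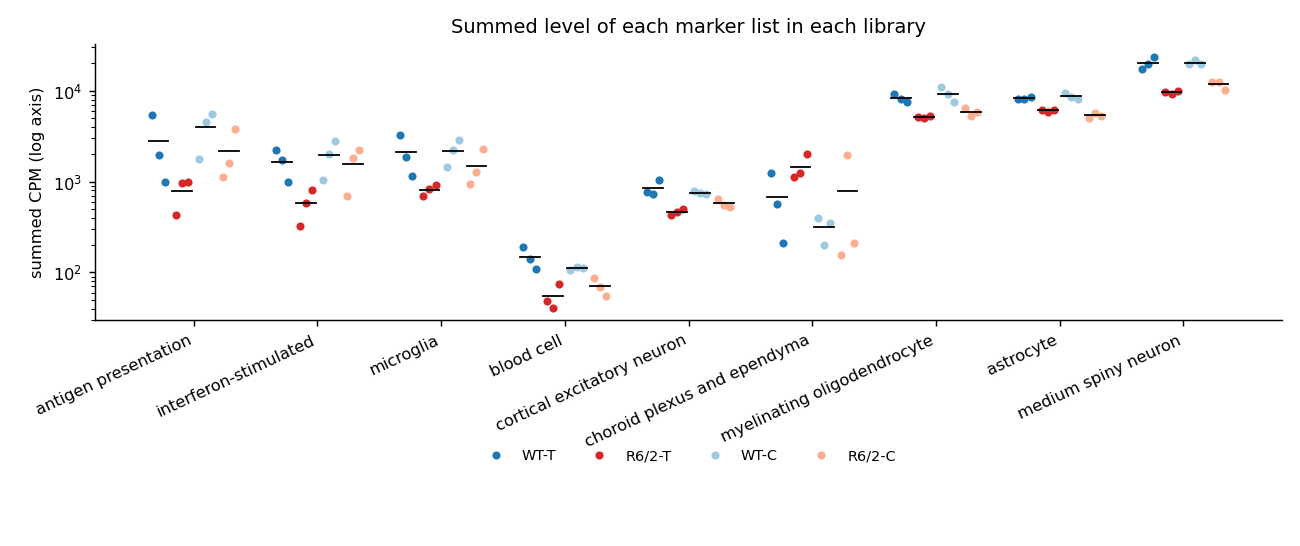
Summed level of the members of 9 marker lists in each library, in CPM on a log axis, with a black line for the mean of each group of 3. Among the WT-T libraries the sums range from 1000 to 5400 CPM for antigen presentation, 980 to 2240 for interferon and 1140 to 3270 for microglial genes. All sums but that of choroid plexus and ependyma are lower in every R6/2-T library than in every WT-T library. For antigen presentation the gap is narrow, 995 against 1000 CPM.

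Of the lists examined, that of chaperones held the most genes that rose. Of 38 heat shock and chaperone genes 19 rose and 5 fell (median 0.26), against 11.5% and 11.1% of all genes tested. Hsp90aa1, the inducible cytosolic HSP90, went from 597, 644 and 626 CPM to 1080, 979 and 994 CPM (0.71, SE 0.09, adjusted p = 0.000601). The subunits of the chaperonin CCT, which folds actin and tubulin, rose together. Cct2, Cct3, Cct4, Cct5, Cct6a, Cct7, Cct8 and Tcp1 were all called, with log2 fold changes of 0.22 to 0.51. Cct6a went from 128, 115 and 113 CPM to 173, 173 and 162 CPM (0.51, SE 0.08, adjusted p = 0.00142). The members that fell were Hspa1a and Hspa1b, near-identical copies of inducible HSP70 (Hspa1b -1.20, SE 0.19, adjusted p = 0.00165), the co-chaperones Dnajb5 (-0.84, SE 0.12, adjusted p = 0.000933) and Bag3 (-0.54, adjusted p = 0.0111), and Hsf1, the master factor of the heat shock response (-0.40, adjusted p = 0.0424). After the GC correction 11 rose and 5 fell, with 11 to 19 rises when single libraries were left out. Of the genes named here, Cct7, Tcp1, Hspa1a, Bag3 and Hsf1 were no longer called after it, and Cct5 and Hsf1 lost their call in 10 and 9 of 12 fits that left out a library.

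Of 35 DNA repair and p53 target genes 11 rose and 5 fell (median 0.26), against 11.5% and 11.1% of all genes tested. The share of falls was thus only a little above that of all genes. The rises included the mismatch repair genes Msh3, Msh6 and Mlh3 and the end-joining genes Prkdc, Xrcc5 and Lig4. Mlh3 went from 30.1, 29.4 and 33.5 CPM to 55.9, 49.4 and 53.1 CPM (0.77, SE 0.09, adjusted p = 0.000441). It was also called after the GC correction (0.47), whereas Msh3 (0.31, adjusted p = 0.178) and Lig4 (0.20, adjusted p = 0.17) were not. The members that fell were Cdkn1a (the cell cycle inhibitor p21), Bbc3, Sesn2, Gadd45a and Fas, all known as targets of p53. Cdkn1a went from 17.8, 25.7 and 18.4 CPM to 6.80, 5.77 and 4.86 CPM (-1.83, SE 0.28, adjusted p = 0.00133). After the correction 6 members of the list rose and 3 fell, Bbc3 and Sesn2 no longer among them, and without R6/2-T 1 there were 6 rises and 2 falls.

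Of 17 genes of small RNA pathways and the translin complex, 5 rose and 2 fell (median 0.18). Of all genes tested 11.5% were called higher and 11.1% lower, so that the share of falls was near that of all genes. Ago4, an Argonaute protein, went from 31.1, 35.0 and 38.6 CPM to 18.5, 19.1 and 19.5 CPM (-0.88, SE 0.12, adjusted p = 0.00092). Xpo5, which exports precursor microRNAs from the nucleus, rose by 0.41 (SE 0.08, adjusted p = 0.00414) and Dgcr8, which starts their processing, by 0.51 (SE 0.10, adjusted p = 0.00387). Gsk3b, a kinase reported to act with TRAX and Disc1, went from 202, 245 and 291 CPM to 353, 335 and 331 CPM (0.47, SE 0.13, adjusted p = 0.023), and was not called after the GC correction (adjusted p = 0.157). Without R6/2-T 1, 2 of the list rose and 1 fell.

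Genes of protein turnover and energy supply had few calls, and the counts here are to be read against the same shares of all genes, 11.5% higher and 11.1% lower. Of 32 proteasome genes 3 rose and none fell (median 0.09), such as Psmd1, from 131, 134 and 133 CPM to 206, 202 and 195 CPM (0.60, SE 0.07, adjusted p = 0.000382). Of 75 nuclear genes of oxidative phosphorylation 5 rose and 3 fell (median -0.08), and of 13 mitochondrially encoded genes 0 were called by edgeR, 0 by DESeq2 and 0 reached an unadjusted p under 0.05, while 2 were called lower after the GC correction. Of 70 ribosomal protein genes 11 fell and 1 rose (median -0.40), with 2 falls without R6/2-T 1 and 21 without WT-T 3. Of 26 genes of cholesterol synthesis and uptake 7 fell and 1 rose (median -0.21). Of 32 developmental genes silenced by Polycomb 1 rose and 4 fell, near or below the shares of all genes. The one that rose, Wt1, the Wilms tumour transcription factor, was at 0.372, 0.129 and 0.176 CPM in WT-T and at 2.69, 1.84 and 3.57 CPM in R6/2-T (3.59, SE 0.43, adjusted p = 0.000482). In the lists of neuron, glial, vascular, immune, blood and choroid plexus markers described above as having no rise, 0 members rose by DESeq2 too, and 0 reached an unadjusted p under 0.05 in that direction, apart from 2 oligodendrocyte precursor genes. In the fragments, however, 1 medium spiny neuron marker was called higher, and after the GC correction 1 cortical marker was. Of the calcium handling genes, 2 reached such a p and DESeq2 called 1 higher. In the fragments 3 of them were called higher, and after the GC correction 2.

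**Figure D4:**
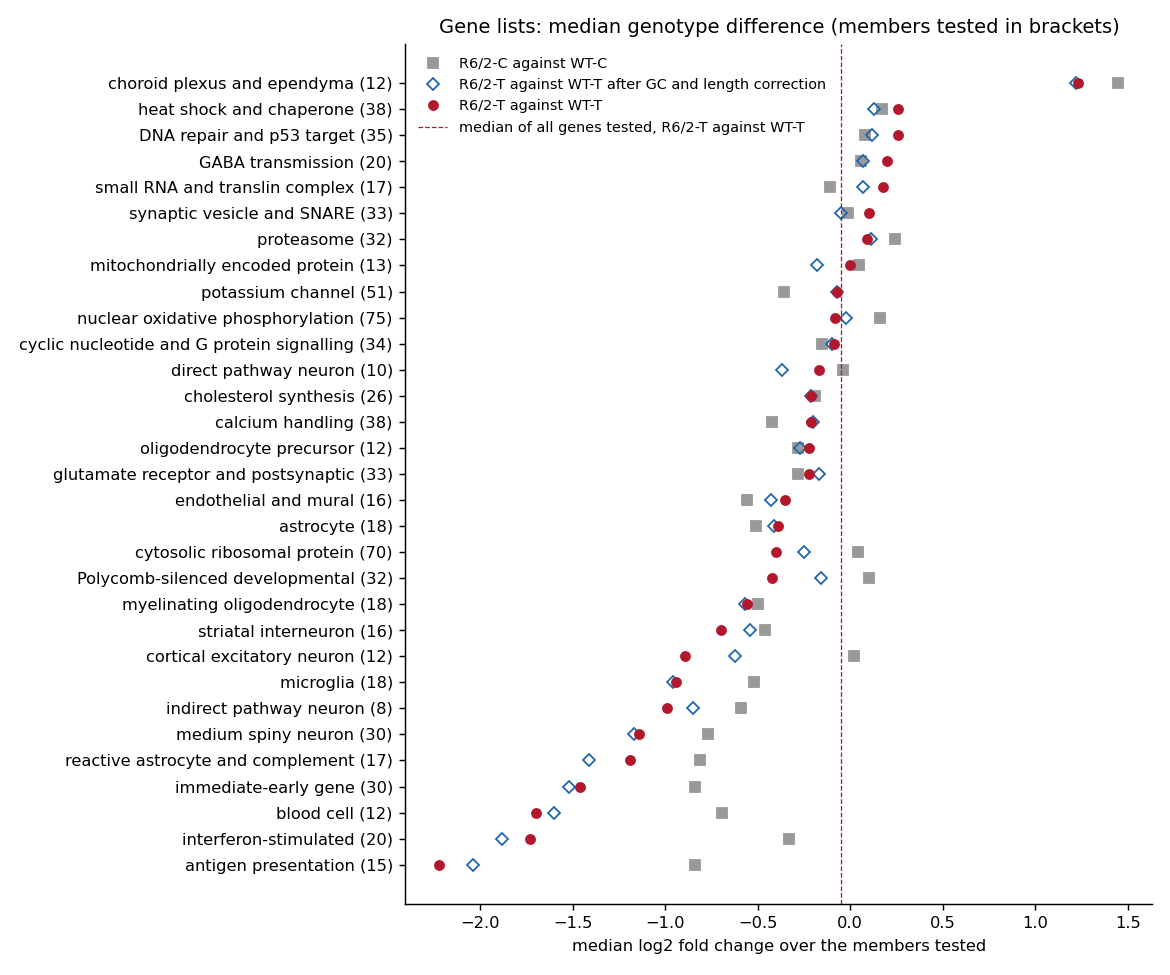
Median log2 fold change over the tested members of 31 gene lists, for R6/2-T against WT-T (red circles), the same after GC and length correction (blue diamonds) and R6/2-C against WT-C (grey squares). Antigen presentation, interferon, blood and immediate-early genes have the lowest red medians, and only the choroid plexus list lies above 1.

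Among single genes whose mean log2 CPM was 1 or more, the largest rise was that of Pcdh20 (chr14:88464743-88471396, minus strand), a protocadherin adhesion protein. It went from 2.51, 3.21 and 4.12 CPM to 49.2, 35.0 and 37.6 CPM (3.63, SE 0.19, adjusted p = 5.85e-06). In the fragment estimates deposited in the same table the rise was smaller, 1.78 (adjusted p = 7.78e-05). Tmc3, a transmembrane channel-like gene, went from 0.971, 0.997 and 0.987 CPM to 5.16, 6.88 and 5.38 CPM (2.56, SE 0.22, adjusted p = 0.000104), and by 2.58 in the fragments. Sfmbt2, a Polycomb group gene, went from 3.95, 4.41 and 3.88 CPM to 13.1, 13.9 and 14.1 CPM (1.74, SE 0.16, adjusted p = 0.000114). Rises of 1.41 to 1.99 in Ttbk2, Phf3, Nek7, Zfx, Kpna1, Chmp3 and Ddx6 were 0.42 to 0.74 in the fragments. All 7 were called in the fragments too. After the GC correction Ttbk2 (adjusted p = 0.0793), Zfx (adjusted p = 0.133), Kpna1 (adjusted p = 0.11) and Chmp3 (adjusted p = 0.0543) were not called, and Kpna1 and Chmp3 lost their call in 8, and Zfx in 5, of 12 fits that left out a library.

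The largest falls were those of Sec14l3, a lipid-binding protein, from 6.93, 12.9 and 18.5 CPM to 0.510, 0.951 and 0.589 CPM (-4.23, SE 0.36, adjusted p = 9.74e-05), and of immune genes. Fgf3, a fibroblast growth factor, went from 7.93, 12.3 and 13.6 CPM to 0.876, 0.70 and 1.01 CPM (-3.71, SE 0.28, adjusted p = 4.14e-05). Of the 15 largest falls, Sec14l3, Egr2 and Fgf3 were also called under the control virus, and the other 12, Mx1, Fcgr4, Oas3, Cxcl10, Cst7, Il2rb, Cd74, Pdcd1, Ifi202b, Ccl5, Zbp1 and Cybb, were not. The interaction was called for none of these 15 genes by edgeR. Without R6/2-T 1, 10 of these 12 lost their call, Mx1 and Cxcl10 being the exceptions, and after the GC correction Ccl5 did (adjusted p = 0.0512).

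The same genotypes were compared under the control virus in 6 separate libraries, which share none with the comparison above. There, 2131 genes (9.09%) were called, of which R6/2-C had 1142 (4.87%) higher and 989 (4.22%) lower. Both comparisons took their spread from 1 model of all 12 libraries, so that their calls are not independent. With only the 2 groups compared in each fit, 454 genes were called under the control virus and 366 in both. The GC correction, in the shared model, gave 4348 under the shRNA, 2398 under the control virus and 1639 in both. Without that correction, 1447 genes were called in both comparisons in the shared model. They were 27.3% of those called under the shRNA and 67.9% of those called under the control virus. Of these, 805 were higher in both, 639 lower in both and 3 opposite. Of the 5304 genes called under the shRNA, 93.0% had the same sign under the control virus, against 71.6% of all genes tested. Across the 23453 genes the log2 fold changes had a Pearson r of 0.47 and a Spearman rho of 0.55, a description over genes that are not independent. Among the 1447 genes the median size of the difference was 0.71 under the shRNA and 0.61 under the control virus.

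For medium spiny neuron markers 19 of 30 were lower under the control virus (median -0.77), and Scn4b had a log2 fold change of -2.20 (adjusted p = 3.84e-05). For immediate-early genes 17 of 30 were lower (median -0.84). Arc had -1.95 (adjusted p = 0.000889), Junb -1.04 (adjusted p = 0.0174) and Nr4a1 -0.92 (adjusted p = 0.186) there. Of interferon, antigen presentation, microglial and blood cell genes 0 were called by edgeR under the control virus, with medians of -0.33, -0.84, -0.52 and -0.69. At an unadjusted p under 0.05 these lists held 0, 0, 2 and 2 lower genes there, and DESeq2 called 0, 0, 1 and 1. Of the 18 astrocyte genes 10 were lower, and of the 18 myelin genes 9.

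The difference between both comparisons was tested as an interaction. By edgeR 1 gene was called (0.00426%), Phf3, a PHD finger protein that binds RNA polymerase II, with 2751 genes (11.7%) at an unadjusted p under 0.05. DESeq2 called 190. Phf3 was at 43.2, 44.2 and 36.7 CPM in WT-T and at 164, 153 and 147 CPM in R6/2-T, while it was at 38.0 to 50.1 CPM in WT-C and 41.2 to 55.6 CPM in R6/2-C (interaction 1.79, adjusted p = 0.0302). In the fragments its difference under the shRNA was 0.54, and 0 interactions were called. Of the 30 immediate-early genes 29 had a negative interaction, 18 an unadjusted p under 0.05, 0 were called by edgeR (lowest adjusted p = 0.346) and 3 by DESeq2, with a median interaction of -0.77. Of the 30 medium spiny neuron markers 10 had such a p, 0 were called by edgeR and 2 by DESeq2 (median -0.27). A gene called under one virus and not under the other was thus not shown to differ between them, with the exception of Phf3 in the edgeR test.

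**Figure D5:**
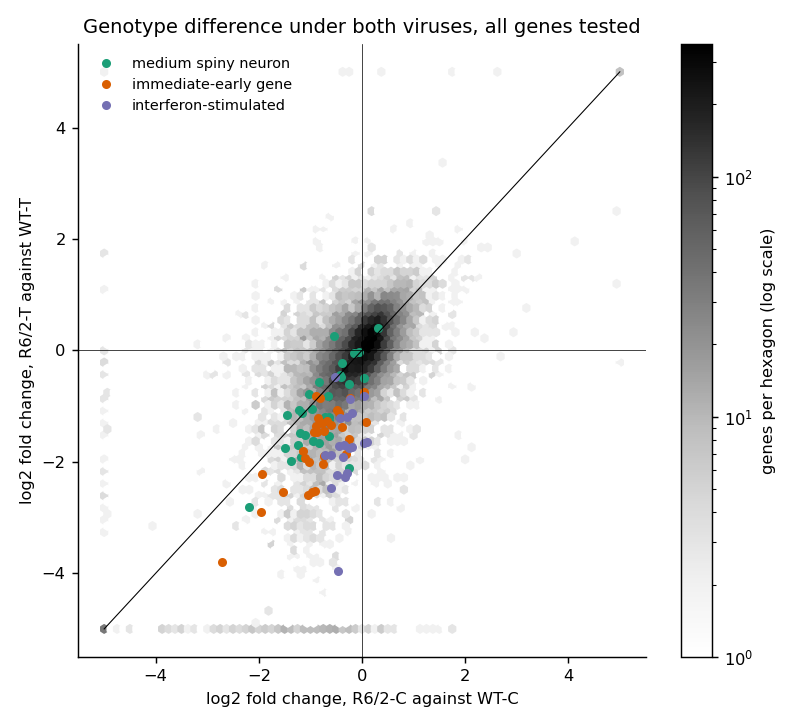
Log2 fold change of R6/2 over wild-type for all genes tested, under the control virus (x axis) and the TRAX shRNA (y axis), as hexagons shaded by the number of genes, with values beyond 5 drawn at 5 and the diagonal as a line. Of the 30 immediate-early genes (orange) 29 lie below the diagonal, as do 19 of 20 interferon-stimulated genes (purple) and 20 of 30 medium spiny neuron genes (green).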

How the data were processed

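Total RNA of the striatum was sequenced in 12 libraries in 4 groups of 3. The submitters' processing notes name bcl2fastq 2.20, HISAT2 without a version, and GRCm38. The kit used for the libraries marks strand, per the labels' protocols, which give TRIzol or miRNeasy for the extraction without assigning them to samples. The authors deposited StringTie's estimated counts (the tool is given per the file headers), 131783370 to 229332386 in a library and about 4.1 to a fragment, so that they are not independent reads. Whole numbers were tested as they stand. The authors also deposited a signal from Cuffdiff, per the file headers, that holds estimated fragments divided by a size factor. It was divided by its step and rounded to give fragments, with 96.1% to 97.1% of values whole within 0.05, and tested as an alternative. The authors' deposited FPKM was used for gene names and marker levels.

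The estimated counts were fitted in edgeR 4.0.16 (R 4.3.3) with 1 model of 4 group means over 12 libraries (8 residual degrees of freedom), TMM scaling, the default filter by group and the robust two-sided quasi-likelihood test. Calls were made where the p adjusted by Benjamini and Hochberg over 23453 genes was under 0.05. CPM are counts scaled with the TMM factors. The design had assumed plain counts. The fit was tested on simulated counts with known differences. These had a fixed dispersion and no GC trend or outlying libraries, so that this test does not cover such features of the data. Alternatives were DESeq2 1.42.0, other scalings and filters, the fit of only the groups compared, a replicate block, the fragments, each library left out and, chosen after seeing the data, thinning to 1 depth and a correction of each library for GC content and transcript length (known for 23354 genes, missing for 99). The 31 gene lists and the members named were chosen with earlier results of these data known. Named by rule are 13 striatal and TRAX-related genes, the 15 largest rises and 15 largest falls (mean log2 CPM of at least 1, groups apart, called the same way in the fragments, with unnamed gene models, antisense genes, receptor segments and pseudogenes left out), up to 4 called members of each list in each direction by smallest p, or the member with the smallest p, and, by smallest interaction p, the 5 genes leading the interaction and 5 called in 1 comparison only, each way. Some genes the rule takes are left out of the text. Named in addition, after their values were seen, were Adcy5, Bcl11b, Cct2, Cct3, Cct5, Cct7, Dusp1, Dusp4, Dusp5, Dusp6, Egr4, Fas, Fos, Fosb, Foxp1, Foxp2, Gnal, Gng7, Homer1, Hsf1, Ido1, Lig4, Meis2, Msh3, Msh6, Npas4, Nr4a1, Nr4a2, Rarb, Slc17a7, Tcp1, Ttr and Xrcc5. The 12 columns headed PEARSON and the authors' table of another comparison were not used. The depth limits low genes, for which counting error adds to the spread.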

Additional observations from a re-analysis of the deposited data

Results flagged for a closer look

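Phf3, which encodes a PHD finger protein (chr1:30802339-30873921, minus strand, GRCm38), was the only gene whose genotype difference was called as unequal under the 2 viruses by edgeR. The interaction was 1.79 on the log2 scale (adjusted p = 0.0302 by edgeR's quasi-likelihood test). In the StringTie counts it was at 43.2, 44.2 and 36.7 CPM in WT-T and at 164, 153 and 147 CPM in R6/2-T. Under the control virus it was at 41.3, 38.0 and 50.1 CPM in WT-C and at 41.2, 55.6 and 43.5 CPM in R6/2-C, so that the groups overlapped there. In the fragments from the Cuffdiff columns it was at 116, 120 and 123 CPM in WT-T and at 185, 172 and 164 CPM in R6/2-T, a rise of 0.54 (adjusted p = 0.00267), against 1.90 in the StringTie counts. The fragments gave no called interaction for any gene by edgeR.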

How the results depend on the processing

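The 5304 genes called between R6/2-T and WT-T became 6696 with DESeq2, 6239 in the fragments, 4447 without an expression filter and 5048 with only the 2 groups compared. Thinning the fragments to 1 depth gave 6120, and the GC and length correction 4348; both were chosen after seeing the data. Leaving out 1 library gave 2760 to 5473, with 2760 without R6/2-T 1, 3149 without R6/2-T 3 and 3399 without WT-T 2. For R6/2-C against WT-C the count of 2131 became 3471 with DESeq2, 454 with only the 2 groups, 3263 in the fragments and 803 to 2733 with 1 library left out. The 1447 genes called in both became 2260, 366, 2241 and 649 to 1641 in the same order. The 1 called interaction became 190 with DESeq2, 2 without a filter, 0 in the fragments, thinned or with the GC correction, and 0 to 29 with 1 library left out. The causes were not tested.

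The deviations of same-numbered libraries of WT-T and R6/2-T correlated at -0.0694, 0.0334 and -0.075, against -0.0302 to 0.102 for different numbers. For WT-C and R6/2-C they correlated at 0.203, -0.00948 and 0.141, against -0.209 to 0.0852. Whether same-numbered libraries share more than a number cannot be told from these few values. With the replicate block 4464, 1199 and 882 genes were called under the shRNA, under the control virus and in both, and 0 in the interaction; not every library correlated best with its own number.

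Of 179 named genes called, 57 lost the call without R6/2-T 1, 37 each without R6/2-T 2 and R6/2-T 3, 24, 28 and 16 without WT-T 1, 2 and 3, 35 with the GC correction and 13 without a filter. Tac1, not called, was -0.13 to 0.07 with 1 library left out, at 0.01 without WT-T 2 and 0.07 without R6/2-T 2. Gm28941 turned to -0.11 in the fragments, -0.10 when thinned and -0.08 with the GC correction, Mocs1 to -0.23 and -0.22 in the first 2, and Ttc14 and Wnk1 to -0.34 and -0.07 with the GC correction. On the log2 scale, the fifth of genes with the lowest GC content minus the fifth with the highest was -0.14, -0.36 and -0.34 in WT-T and 0.42, 0.23 and 0.36 in R6/2-T.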
